A study of Rattus norvegicus with 12 samples.

Results

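Solute carriers are membrane proteins that move amino acids, sugars, ions, metals, nucleotides and vitamins across cell and organelle membranes, and their genes are numbered by family (the number before the "a") and by member. The set described here holds the solute carrier genes with measurable RNA in rat PAC1 cells, a pulmonary artery smooth muscle cell line. Members were chosen by symbol (Slc, a family number, "a" and a member number) and by a mean CPM, the count scaled to the library total, of at least 5 over all 12 libraries. Slc2a1, Slc2a3, Slc16a3, Slc7a11 and Slc8a1 were left out by name. Of 33294 symbols in the count table, 335 had this form, 252 of these passed the low-count filter of the test, and 146 were members, from 42 families. All 146 members were tested, and none had a control mean under the minimum.

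The study asked how the RNA-binding proteins RBPMS, RBFOX2 and QKI shape the smooth muscle transcriptome. All 4 groups were PAC1 cells of 1 line kept under the conditions that favour the more differentiated state, and all received siRNA by the same reverse transfection. The control group received the scrambled siRNA C2, and the other groups received siRNA against RBPMS, RBFOX2 or QKI (gene symbol Qk), with 3 libraries in each group. Per the labels each transfection used 90 pmol, the second followed 24 h after the first, and cells were collected 48 h after the second. The study's methods give longer intervals for the same steps. The labels number the replicates without saying what they are, and the study's methods call the replicates of each knockdown condition biological.

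The sense strands of the siRNAs are printed because they define the groups, each 5′ to 3′ as the study lists them, in lower case since no base is singled out.
control (C2): aagguccggcucccccaaaug
RBPMS: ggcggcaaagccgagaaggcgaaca
RBFOX2: gcaaugguucagccuuuua
QKI (Qk): ggacuuacagcuaaacaac
Each protein was targeted by a single siRNA, so effects of the protein's loss and other effects of that oligonucleotide cannot be told apart.

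As background, many solute carriers work as exchangers or cotransporters, so that the gradient of one solute drives another. Several amino acid exchangers of family 7 need the heavy chain Slc3a2 to reach the cell surface. Families 30 and 39 carry zinc in opposite directions, out of and into the cytosol, family 25 lies mostly in the inner mitochondrial membrane, and the cation-chloride cotransporters of family 12 set the chloride content of smooth muscle cells and so influence their membrane potential.

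Library totals ran from 110595399 to 151665474 counts. The targeted RNA was lower in the libraries of its own knockdown. Rbpms fell from 40.7 ± 2.60 to 7.21 ± 0.301 CPM (SD, n = 3), Rbfox2 from 154 ± 4.37 to 37.3 ± 0.943 CPM, and Qk from 233 ± 7.04 to 26.6 ± 0.649 CPM. The other knockdowns also moved these RNAs against control, short of the call rule given below. On the log2 scale Rbpms was lower after RBFOX2 (-0.81) and QKI knockdown (-0.49), and Qk after RBFOX2 knockdown (-0.42). Rbfox2 was lower after RBPMS and QKI knockdown (-0.12 and -0.15), and Qk was higher after RBPMS knockdown (0.18). What these shifts contribute to the solute carrier results was not tested. The library RBPMS-KD 2 stood apart from its own group. Its counts differed from those of the other RBPMS knockdown libraries by a chi-square of 45.6 and 57.8 per degree of freedom, against 4.64 to 21.5 for the pairs without that library. Smooth muscle markers were present, with 8 genes summing to 2072 to 2155 CPM in the control libraries, 1024 to 1115 after RBPMS, 845 to 945 after RBFOX2 and 1497 to 1595 after QKI knockdown. In the same order 4, 4 and 2 of the 8 fell past the call rule given below, and Myh11 rose after RBFOX2 knockdown (1.05). The control sum was mostly Acta2 and Tagln (means of 990 and 687 CPM), while Myh11, Cnn1 and Mylk stood at 6.48, 6.43 and 4.18 CPM. The study describes the control cells of this experiment as less differentiated than those of its other RNA-seq experiment. Of 5 epithelial markers, 4 stayed under 1 CPM in every library, and the sum, nearly all Krt8, was 28.9 to 31.4 CPM in control and 73.6 to 75.5 CPM after RBFOX2 knockdown. The leukocyte list summed to at most 2.97 CPM with 4 of 5 markers under 1 CPM, and the endothelial list to at most 10.6 CPM with 2 of 5 under 1 CPM. The part of these markers in the solute carrier results was not tested.

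More solute carriers changed after QKI knockdown than after the other knockdowns. A gene is called changed where the adjusted p was under 0.05 in edgeR's quasi-likelihood test and the log2 fold change was beyond 1 in either direction, the study's own rule. After RBPMS knockdown 9 of 146 members changed (6.16%), 6 higher and 3 lower. After RBFOX2 knockdown 8 changed (5.48%), 4 higher and 4 lower. After QKI knockdown 29 changed (19.9%), 9 higher and 20 lower. The background share of all 18438 genes tested was 9.66%, 11.7% and 17.5% in the same order, but that includes weakly expressed genes, in which calls were more common. Over the 10710 tested genes that also had a mean of at least 5 CPM it was 4.54%, 5.79% and 10.9%.

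By direction, the background over genes of at least 5 CPM was 2.71% higher and 1.83% lower for RBPMS, 2.72% higher and 3.07% lower for RBFOX2, and 3.06% higher and 7.81% lower for QKI. The members stood at 4.11% higher and 2.05% lower, 2.74% higher and 2.74% lower, and 6.16% higher and 13.7% lower. The shares for RBPMS and RBFOX2 knockdown were thus near the background, and those for QKI knockdown were above it in both directions. All 9, 8 and 29 changed members had knockdown libraries that did not overlap the control libraries. The share without overlap among all called genes was not counted, so this cannot be read as a trait of solute carriers. Standard errors of the changed members ranged from 0.032 to 0.13 on the log2 scale, and the largest adjusted p among them was 2.1e-07. The 3 comparisons share the same control libraries.

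**Figure D1:**
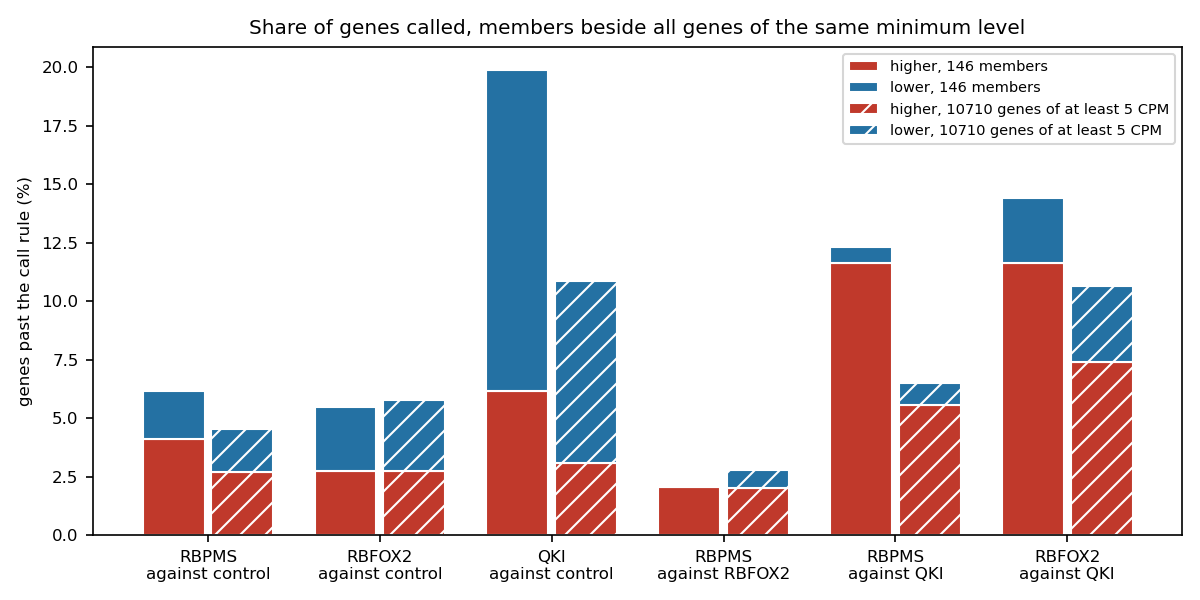
Share of genes past the call rule in each of 6 comparisons (vertical axis, percent), split into higher (red) and lower (blue). Plain bars are the 146 members and hatched bars the 10710 tested genes of at least 5 CPM; in QKI knockdown the members reach 19.9% against 10.9%.

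Most members moved by less than the fold threshold but still differed from control. With the adjusted p alone, 46 members were higher and 75 lower after RBPMS knockdown, 37 higher and 77 lower after RBFOX2 knockdown, and 44 higher and 80 lower after QKI knockdown. Over genes of at least 5 CPM the same test called 39.8% higher and 35.8% lower, 34.9% and 39.9%, and 37.4% and 42.9%. The members stood at 31.5% higher and 51.4% lower, 25.3% and 52.7%, and 30.1% and 54.8%. The median log2 fold change of the members was -0.12, -0.14 and -0.18 in RBPMS, RBFOX2 and QKI knockdown, beside 0.017, -0.022 and -0.032 over the genes of at least 5 CPM. In 60 members the log2 fold change was 0.5 or less in size in each knockdown, and 109 were changed in none. The matching shares over the genes of at least 5 CPM were not counted, so these 2 counts describe the members only.

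Replicates of the members were tight. The median coefficient of variation was 3.64% in control, 4.55% after RBPMS, 2.30% after RBFOX2 and 3.09% after QKI knockdown, and the highest was 21.98%, in RBPMS knockdown. Control means ran from 5.50 CPM (Slc2a10) to 673 CPM (Slc38a2), with a median of 40.5 CPM. CPM is not scaled to transcript length, so levels are compared below only between libraries for the same gene. The members together took up 9798 ± 202 CPM in control (SD, n = 3), 10701 ± 84.1 after RBPMS, 9153 ± 45.9 after RBFOX2 and 9281 ± 69.3 after QKI knockdown.

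**Figure D2:**
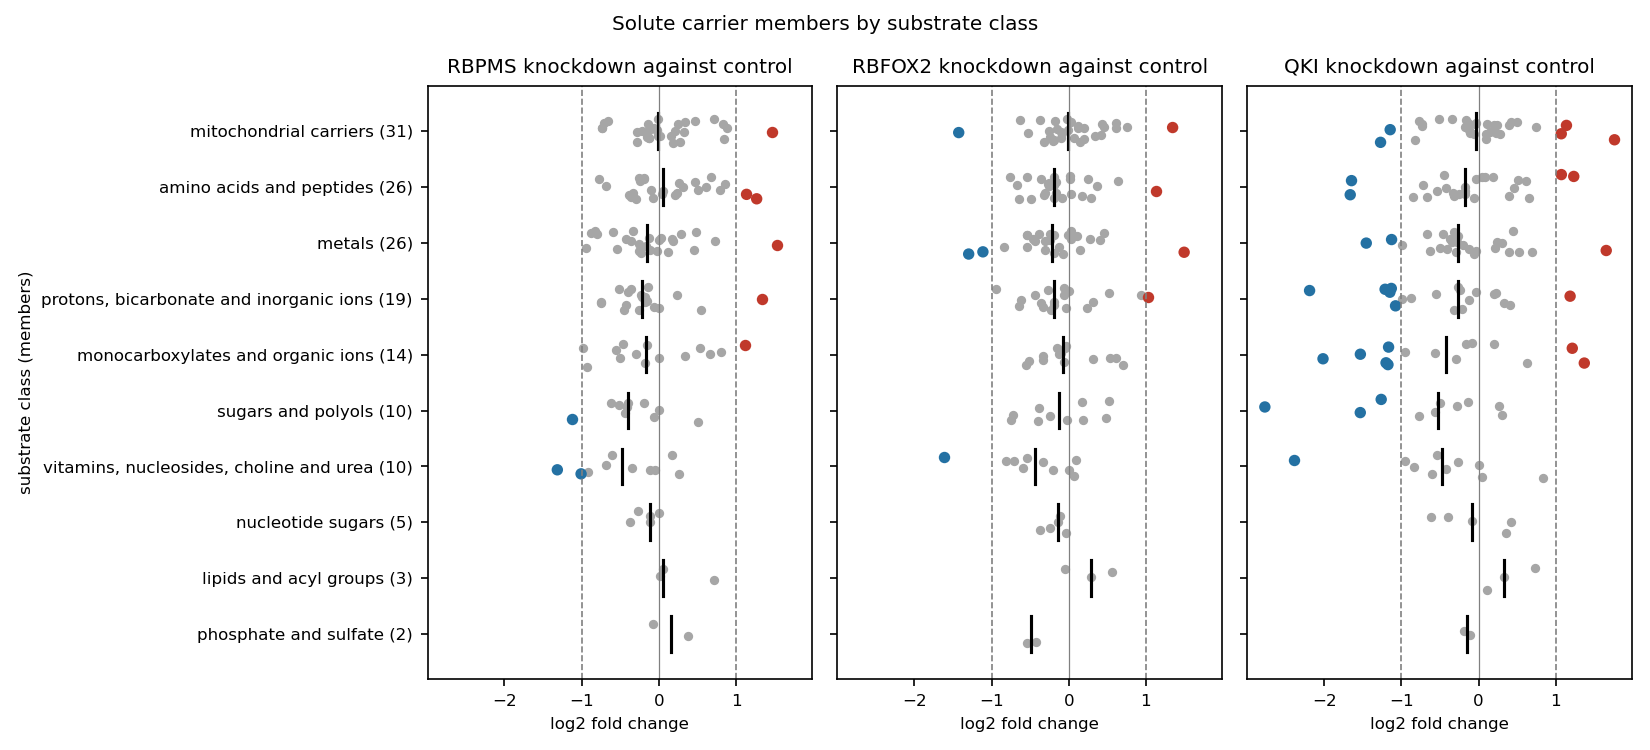
Log2 fold change against control (horizontal axis) of all 146 members in 10 substrate classes, one panel per knockdown. Red and blue points passed the call rule, grey points did not, black bars are class medians and dashed lines mark the fold threshold of 1; the lowest points are Slc2a12 at -2.77 and Slc29a1 at -2.40, in QKI knockdown.

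Slc39a1 and Slc25a39 were higher in all 3 knockdowns, and no member was lower past the call rule in all 3. Slc39a1 encodes ZIP1, a zinc importer of the plasma membrane. It stood at 83.9, 85.8 and 85.6 CPM in the control libraries, 237, 253 and 247 after RBPMS, 242, 241 and 237 after RBFOX2 and 266, 267 and 270.3 after QKI knockdown. Every knockdown library lay far above every control library, with log2 fold changes of 1.53 ± 0.032, 1.495 ± 0.032 and 1.65 ± 0.032 (SE, adjusted p = 6.9e-16, 3.9e-16 and 6.5e-17). Slc25a39 encodes a carrier that brings glutathione into mitochondria. It stood at 42.5, 40.5 and 39.8 CPM in control, 108, 123 and 107 after RBPMS, 103, 107 and 103 after RBFOX2 and 143, 136 and 137 after QKI knockdown, again with no overlap. The log2 fold changes were 1.46 ± 0.048, 1.35 ± 0.048 and 1.76 ± 0.048 (SE, adjusted p = 1.6e-13, 2.3e-13 and 3.7e-15). Since the control libraries are shared, a low value in control enters all 3 comparisons.

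The promoters of both genes are printed because the genes moved together. Sequences are from RefSeq (build GRCr8), 300 bases around the annotated start, read in the direction of transcription. Capitals mark the GC box GGGCGG and the CCAAT box CCAAT on either strand, which can overlap but did not in these windows.
Slc39a1, chr2:178000869-178001168, plus strand: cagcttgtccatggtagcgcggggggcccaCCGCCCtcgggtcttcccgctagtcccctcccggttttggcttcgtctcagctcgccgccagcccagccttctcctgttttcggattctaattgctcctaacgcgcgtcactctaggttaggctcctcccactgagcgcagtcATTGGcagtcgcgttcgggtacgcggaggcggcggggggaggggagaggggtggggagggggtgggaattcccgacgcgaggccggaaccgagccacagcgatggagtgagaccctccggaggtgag
Slc25a39, chr10:87866924-87867223, minus strand: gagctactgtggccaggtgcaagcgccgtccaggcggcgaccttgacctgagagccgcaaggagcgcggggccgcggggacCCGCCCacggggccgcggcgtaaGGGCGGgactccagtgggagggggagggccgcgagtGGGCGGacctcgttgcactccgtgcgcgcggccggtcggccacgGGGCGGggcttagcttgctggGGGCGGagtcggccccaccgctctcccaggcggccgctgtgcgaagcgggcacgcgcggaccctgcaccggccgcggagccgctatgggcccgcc
The Slc39a1 window held 1 GC box and 1 CCAAT box, with a G and C content of 66.3%. The Slc25a39 window held 5 GC boxes and no CCAAT box, with a G and C content of 77.7%. Of the members, 113 matched a promoter by symbol, with 119 sequences. The GC box was in 86 of these 119 (72.3%), in 5991 of 9411 promoters of genes of at least 5 CPM (63.7%) and in 33.1% of all 33469. The CCAAT box was in 46 of 119 (38.7%), 37.96% and 37.5%. The motifs were chosen with the results known, and a match is a description of letters, not a binding site.

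Substrate classes were set by family number, so that a few members sit beside genes of another substrate. Examples are the vitamin transporter Slc5a6 among sugars and polyols and the creatine transporter Slc6a8 among amino acids. The class counts below stand beside 4.54%, 5.79% and 10.9% of genes of at least 5 CPM changed in RBPMS, RBFOX2 and QKI knockdown. Class medians stand beside 0.017, -0.022 and -0.032 over the same genes. No class was tested as a set. Slc2a10, Slc4a3, Slc4a4, Slc4a11, Slc12a9, Slc22a5, Slc22a18, Slc25a15, Slc25a30, Slc25a33, Slc25a37, Slc25a46, Slc29a2, Slc31a2, Slc39a13 and Slc49a3 lie outside the naming rule and were chosen after their values were seen. Slc24a3, named below beside the minimum of 5 CPM, lies outside the rule as well.

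Of 26 members for amino acids and peptides, 2 were higher and none lower after RBPMS knockdown, 1 was higher after RBFOX2, and 2 were higher and 2 lower after QKI knockdown. Slc1a5 encodes ASCT2, a sodium-coupled exchanger of glutamine and other neutral amino acids. It stood at 27.95, 30.96 and 25.9 CPM in control and at 67.9, 68.6 and 67.8 after RBPMS knockdown (log2 fold change 1.27 ± 0.053, SE). After QKI knockdown it was at 67.3, 64.6 and 67.5 CPM (1.23 ± 0.053), and after RBFOX2 knockdown at 44.3, 45.8 and 41.6, short of the fold threshold at 0.63 (adjusted p = 1.5e-08). All 9 knockdown libraries lay above the control libraries.

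Slc3a2, the heavy chain shared by several amino acid exchangers, rose in RBPMS knockdown from 265, 286 and 222 to 525, 610.5 and 564 CPM (1.14 ± 0.070, SE, adjusted p = 3.4e-10). Its values were 289, 294 and 287 CPM after RBFOX2 and 339.5, 322 and 349.6 after QKI knockdown, which gave 0.17 and 0.39 on the log2 scale. Its light-chain partner Slc7a5 (LAT1), which exchanges large neutral amino acids, stood at 197, 209.8 and 178 CPM in control and 304, 287 and 303 after RBPMS knockdown (0.61, adjusted p = 5.0e-09), under the fold threshold. After RBFOX2 knockdown Slc7a5 was at 171, 177 and 172 CPM, below control, and after QKI knockdown at 201, 196 and 202 CPM, overlapping it.

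The lysosomal arginine sensor Slc38a9 rose after RBFOX2 knockdown, from 8.25, 8.90 and 7.78 to 18.7, 17.2 and 18.9 CPM (1.13 ± 0.060, SE, adjusted p = 3.9e-11). Its log2 fold changes after RBPMS and QKI knockdown were 0.86 and 0.46. Slc43a2 (LAT4), a facilitator of neutral amino acids, passed the rule after QKI knockdown at 29.1, 27.9 and 29.3 CPM against 13.997, 14.9 and 12.1 (1.07 ± 0.069), and without the third control library its log2 fold change was 0.99, under the threshold.

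The falls in this class were in QKI knockdown. Slc6a15, a neutral amino acid transporter with preference for branched chains, stood at 41.8, 42.98 and 35.6 CPM in control and 12.9, 11.4 and 13.7 after QKI knockdown (-1.66 ± 0.076, SE, adjusted p = 2.9e-12). Slc7a2 (CAT2), a carrier of arginine and other cationic amino acids, fell from 31.3, 30.9 and 36.8 to 9.81, 11.03 and 10.8 CPM (-1.65 ± 0.093). Slc7a2 was at 28.4, 21.7 and 28.8 CPM after RBPMS knockdown, all below control (-0.33), and at 41.1, 41.6 and 38.7 CPM after RBFOX2 knockdown, all above it (0.29). The paralog Slc7a1 (CAT1) was at 221 ± 19.6 CPM in control and 164 ± 5.30 after QKI knockdown (SD, n = 3, -0.43). Slc38a2 (SNAT2), which carries small neutral amino acids, was higher after RBPMS knockdown and lower after the others, with log2 fold changes of 0.32, -0.32 and -0.53. The taurine transporter Slc6a6 had values of 0.46, -0.19 and -0.85, and the creatine transporter Slc6a8 stood at 60.4 ± 1.75 CPM in control and 44.3 ± 2.66 after QKI knockdown (-0.45).

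Of 26 members for metals, 1 was higher after RBPMS knockdown, and 1 was higher and 2 lower after both RBFOX2 and QKI knockdown. Beside Slc39a1, the zinc importer Slc39a10 (ZIP10) moved the other way. It stood at 83.3, 84.4 and 85.9 CPM in control, 51.6, 45.3 and 48.5 after RBPMS, 38.5, 40.1 and 38.7 after RBFOX2 and 38.04, 39.7 and 38.3 after QKI knockdown. The log2 fold changes were -0.80, -1.11 ± 0.043 and -1.13 ± 0.043 (SE), of which the last pair passed the call rule.

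Slc30a4 (ZnT4), which moves zinc from the cytosol into vesicles, fell after RBFOX2 knockdown. Its values were 117, 119.7 and 118 CPM in control, 136, 127 and 139 after RBPMS, 47.4, 48.7 and 48.2 after RBFOX2 and 165, 166 and 177 after QKI knockdown. RBFOX2 libraries lay far below control (-1.30 ± 0.039, SE, adjusted p = 2.5e-14), while the RBPMS and QKI libraries lay above it (0.18 and 0.52). The plasma membrane zinc exporter Slc30a1 was lower in each knockdown but short of the threshold, at -0.33, -0.31 and -0.41.

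Slc39a9 (ZIP9) stood at 104, 105 and 109 CPM in control, 56.5, 52.2 and 57.1 after RBPMS, 73.5, 71.7 and 72.7 after RBFOX2 and 123, 127 and 125 after QKI knockdown. RBPMS libraries were lowest at -0.94, just short of the fold threshold, and QKI libraries were slightly above control at 0.24.

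For copper, Slc31a2 (CTR2) fell after QKI knockdown from 18.7, 20.3 and 19.4 to 7.47, 6.99 and 6.80 CPM (-1.46 ± 0.056, SE). The high-affinity copper importer Slc31a1 (CTR1) had log2 fold changes of -0.25, -0.54 and -0.67 and was called in none. Iron carriers did not pass the rule either. Ferroportin (Slc40a1), the iron exporter, was at 19.1, 19.5 and 16.8 CPM in control, 24.2, 27.9 and 25.5 after RBPMS, 14.02, 13.96 and 12.8 after RBFOX2 and 13.6, 11.6 and 15.003 after QKI knockdown. It was higher in RBPMS and lower in RBFOX2 and QKI knockdown, at 0.49, -0.44 and -0.46. Slc39a7 (ZIP7), which releases zinc from the endoplasmic reticulum, had values of 267 ± 2.72 CPM in control and 272, 226 and 308 CPM after RBPMS, RBFOX2 and QKI knockdown. DMT1 (Slc11a2) and the zinc and iron importer Slc39a14 stayed within 0.5 of control in each knockdown.

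Of 31 mitochondrial carriers, 1 was higher after RBPMS knockdown, 1 higher and 1 lower after RBFOX2, and 3 higher and 2 lower after QKI knockdown. None of the 3 with the highest counts passed the rule. The ADP/ATP exchanger Slc25a4 was at 615 ± 4.24 CPM in control (SD, n = 3) and at 563, 477 and 431 CPM after RBPMS, RBFOX2 and QKI knockdown (-0.13, -0.37 and -0.51). Its paralog Slc25a5 had log2 fold changes of 0.16, -0.25 and -0.17, and the phosphate carrier Slc25a3 had 0.25 and 0.20 in RBPMS and QKI knockdown. Counts of such near-identical families can be split or shared between copies and processed pseudogenes.

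Slc25a32, a carrier of folates and flavin nucleotide into mitochondria, stood at 12.8, 12.1 and 12.9 CPM in control and 29.01, 26.7 and 27.5 after QKI knockdown (1.14 ± 0.044, SE). It was also above control after RBPMS and RBFOX2 knockdown, at 0.84 and 0.76. The pyrimidine nucleotide carrier Slc25a33 passed the rule after QKI knockdown at 18.99, 18.7 and 19.4 CPM against 9.26, 9.62 and 8.29 (1.07 ± 0.077).

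Slc25a24, which exchanges ATP-magnesium for phosphate under control of calcium, was at 84.8, 91.4 and 89.5 CPM in control, 153, 141 and 144 after RBPMS, 88.9, 90.2 and 92.2 after RBFOX2 and 35.4, 35.8 and 38.9 after QKI knockdown. It was thus higher in RBPMS knockdown (0.72, under the fold threshold) and lower in QKI knockdown (-1.27 ± 0.045, SE, adjusted p = 8.6e-14). Slc25a30 fell after QKI knockdown from 45.7, 46.3 and 47.4 to 21.4, 21.2 and 20.3 CPM (-1.15). The ornithine carrier Slc25a2 fell after RBFOX2 knockdown from 8.81, 7.57 and 7.80 to 3.09, 2.95 and 2.95 CPM (-1.43 ± 0.073, adjusted p = 2.7e-11), beside 5.16, 4.84 and 5.31 CPM after RBPMS and 7.31, 6.87 and 7.195 after QKI knockdown.

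Of 14 members for monocarboxylates and organic ions, 7 changed after QKI knockdown, 2 higher and 5 lower, beside 1 after RBPMS and none after RBFOX2 knockdown. The median of the class in QKI knockdown was -0.43, beside -0.032 over genes of at least 5 CPM. Slc16a1 (MCT1), which carries lactate and pyruvate with protons, stood at 40.7, 43.5 and 39.3 CPM in control, 89.1, 89.5 and 88.01 after RBPMS, 61.98, 64.6 and 61.9 after RBFOX2 and 96.2, 91.2 and 98.8 after QKI knockdown. Every knockdown library was above control, and the rule was passed after RBPMS (1.11 ± 0.042, SE) and QKI knockdown (1.21 ± 0.042). The related Slc16a7 (MCT2) went down in QKI knockdown, from 50.7, 50.8 and 54.2 to 22.7, 20.99 and 24.1 CPM (-1.20 ± 0.053).

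The orphan member Slc16a14 stood at 25.1, 25.6 and 27.9 CPM in control, 20.6, 16.7 and 18.5 after RBPMS, 32.1, 32.99 and 32.7 after RBFOX2 and 6.06, 6.87 and 6.52 after QKI knockdown. QKI libraries were lowest (-2.02 ± 0.071, SE, adjusted p = 9.3e-14), RBPMS libraries were below control (-0.50) and RBFOX2 libraries above it (0.31). Slc17a9, which loads ATP into vesicles, rose after QKI knockdown from 6.67, 6.49 and 5.99 to 16.2, 16.9 and 16.4 CPM (1.37 ± 0.060). The vesicular monoamine transporter Slc18a2 (VMAT2) fell from 11.1, 10.997 and 10.6 to 3.96, 3.67 and 3.68 CPM (-1.53 ± 0.069). The carnitine transporter Slc22a5 fell by 1.18 and Slc22a18 by 1.17 on the log2 scale in QKI knockdown. In RBPMS knockdown Slc22a18 was at -0.99, just short of the threshold, and at -1.004 without RBPMS-KD 2, where it passed.

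Of 19 members for protons, bicarbonate and inorganic ions, 1 was higher after RBPMS knockdown, 1 higher after RBFOX2, and 1 higher and 5 lower after QKI knockdown. Slc12a2 (NKCC1), which brings sodium, potassium and chloride into the cell, stood at 66.8, 67.1 and 71.1 CPM in control, 185, 159.6 and 171 after RBPMS, 140.4, 137 and 141 after RBFOX2 and 89.9, 89.7 and 93.1 after QKI knockdown. Each knockdown lay above control, with log2 fold changes of 1.33 ± 0.046, 1.03 ± 0.046 and 0.41 ± 0.046 (SE), of which those for RBPMS and RBFOX2 passed the rule.

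Within the same family Slc12a8 fell after QKI knockdown from 8.12, 7.69 and 8.13 to 1.91, 1.64 and 1.69 CPM (-2.19 ± 0.082, SE, adjusted p = 2.0e-13), and Slc12a9 fell from 26.2, 27.1 and 26.8 to 12.2, 11.4 and 12.5 CPM (-1.15). In the bicarbonate family 4, Slc4a3 (AE3) and Slc4a11 fell past the rule in QKI knockdown, at -1.08 and -1.13. The sodium bicarbonate cotransporter Slc4a7 (NBCn1) stood at 100.2, 104 and 103 CPM in control and 50.7, 51.3 and 52.6 after QKI knockdown (-0.99 ± 0.055), just short of the fold threshold, and it passed with no filter on low counts and without the first control or the third QKI knockdown library (-1.01 in each). The anion exchanger Slc4a2 was at 298 ± 10.6 CPM in control and 247 ± 3.38 after QKI knockdown (SD, n = 3, -0.27).

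Of 10 members for sugars and polyols, 1 fell after RBPMS knockdown, none changed after RBFOX2 and 3 fell after QKI knockdown, with none higher. The summed level of the class was 325 ± 5.59 CPM in control (SD, n = 3), 256 ± 2.27 after RBPMS, 268 ± 1.81 after RBFOX2 and 184 ± 0.861 after QKI knockdown. Slc2a12 (GLUT12), a glucose transporter, had the largest change among all members. It stood at 19.96, 20.4 and 21.2 CPM in control, 18.2, 17.2 and 18.7 after RBPMS, 15.4, 15.7 and 15.4 after RBFOX2 and 3.09, 2.62 and 3.29 after QKI knockdown. The log2 fold change was -2.77 ± 0.068 in QKI knockdown (SE, adjusted p = 9.3e-16), 6.82-fold lower, beside -0.19 and -0.40 in the others. The intracellular glucose transporter Slc2a8 (GLUT8) fell after RBPMS knockdown from 17.2, 18.8 and 17.6 to 8.09, 8.29 and 8.12 CPM (-1.13 ± 0.053), with -0.75 and -0.50 in RBFOX2 and QKI knockdown.

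Slc37a3, a lysosomal member of the glucose-6-phosphate antiporter family, was at 121, 126 and 124 CPM in control, 96.9, 91.1 and 94.7 after RBPMS, 75.4, 74.6 and 74.4 after RBFOX2 and 41.8, 43.9 and 42.7 after QKI knockdown. All knockdown libraries were below control, and QKI knockdown passed the rule (-1.53 ± 0.035, SE). Slc5a3 (SMIT1), which brings in myo-inositol with sodium, stood at 6.002, 7.07 and 5.71 CPM in control and 2.79, 2.62 and 2.42 after QKI knockdown (-1.26 ± 0.13). In RBPMS knockdown it was at 9.81, 6.73 and 10.4 CPM, with RBPMS-KD 2 within the control range, and in RBFOX2 knockdown at 9.02, 9.08 and 8.93 CPM. The vitamin transporter Slc5a6 was lower in each knockdown without passing the rule, at -0.41, -0.24 and -0.56.

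Of 10 members for vitamins, nucleosides, choline and urea, 2 fell after RBPMS knockdown and 1 each after RBFOX2 and QKI knockdown, and none rose past the rule. The class median was -0.47, -0.44 and -0.48. The thiamine transporter Slc19a2 stood at 29.01, 28.1 and 27.1 CPM in control, 11.2, 11.6 and 11.03 after RBPMS, 9.21, 9.09 and 9.11 after RBFOX2 and 18.6, 18.1 and 18.4 after QKI knockdown. The groups did not overlap control, and the log2 fold changes were -1.32 ± 0.044, -1.62 ± 0.045 and -0.61 ± 0.043 (SE), of which the last did not reach the fold threshold. The reduced folate carrier Slc19a1 fell after RBPMS knockdown from 24.8, 26.7 and 22.98 to 12.2, 12.8 and 11.9 CPM (-1.01 ± 0.060). It is the called member nearest to the threshold, and it lost the call without the second control library (-0.95) or the third RBPMS knockdown library (-0.98).

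Slc29a1 (ENT1), the equilibrative nucleoside transporter that takes up adenosine, was at 29.97, 31.3 and 33.7 CPM in control, 29.4, 30.6 and 28.1 after RBPMS, 18.2, 18.2 and 17.8 after RBFOX2 and 6.13, 5.74 and 6.14 after QKI knockdown. RBPMS libraries overlapped control (-0.11, adjusted p = 0.069). RBFOX2 libraries were lower (-0.81) and QKI libraries lowest (-2.40 ± 0.055, SE, adjusted p = 3.7e-16), 5.27-fold below control. Its paralog Slc29a2 stayed within 0.2 of control in each knockdown (0.17, 0.065 and 0.049). The choline transporter Slc44a1 was higher after QKI knockdown, at 62.8, 60.3 and 61.8 CPM against 32.7, 34.3 and 36.9 (0.83), under the fold threshold. The ascorbate transporter Slc23a2 was at 101 ± 7.57 CPM in control and 121 ± 12.1 after RBPMS knockdown (0.26), with overlapping libraries.

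The 3 small classes held no member past the rule in any knockdown. Among 3 members for lipids and acyl groups, the fatty acid transporter Slc27a4 was above control in each knockdown, at 0.72, 0.56 and 0.73, and the acetyl-CoA transporter Slc33a1 lay within 0.2 of it. Among 5 members for nucleotide sugars, Slc35a2, which takes UDP-galactose into the Golgi, was at -0.12, -0.14 and 0.42, Slc35a3 at -0.38, -0.12 and -0.40, and Slc35a4 at -0.37 and 0.36 in RBFOX2 and QKI knockdown. The phosphate importer Slc20a1 (PiT1) stood at 276, 294 and 253 CPM in control, 343, 351 and 377 after RBPMS, 182, 192 and 189 after RBFOX2 and 251, 249.9 and 262 after QKI knockdown. It was above control after RBPMS (0.38) and below it after RBFOX2 knockdown (-0.55), and its paralog Slc20a2 (PiT2) was at -0.43 and -0.19 in RBFOX2 and QKI knockdown.

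**Figure D3:**
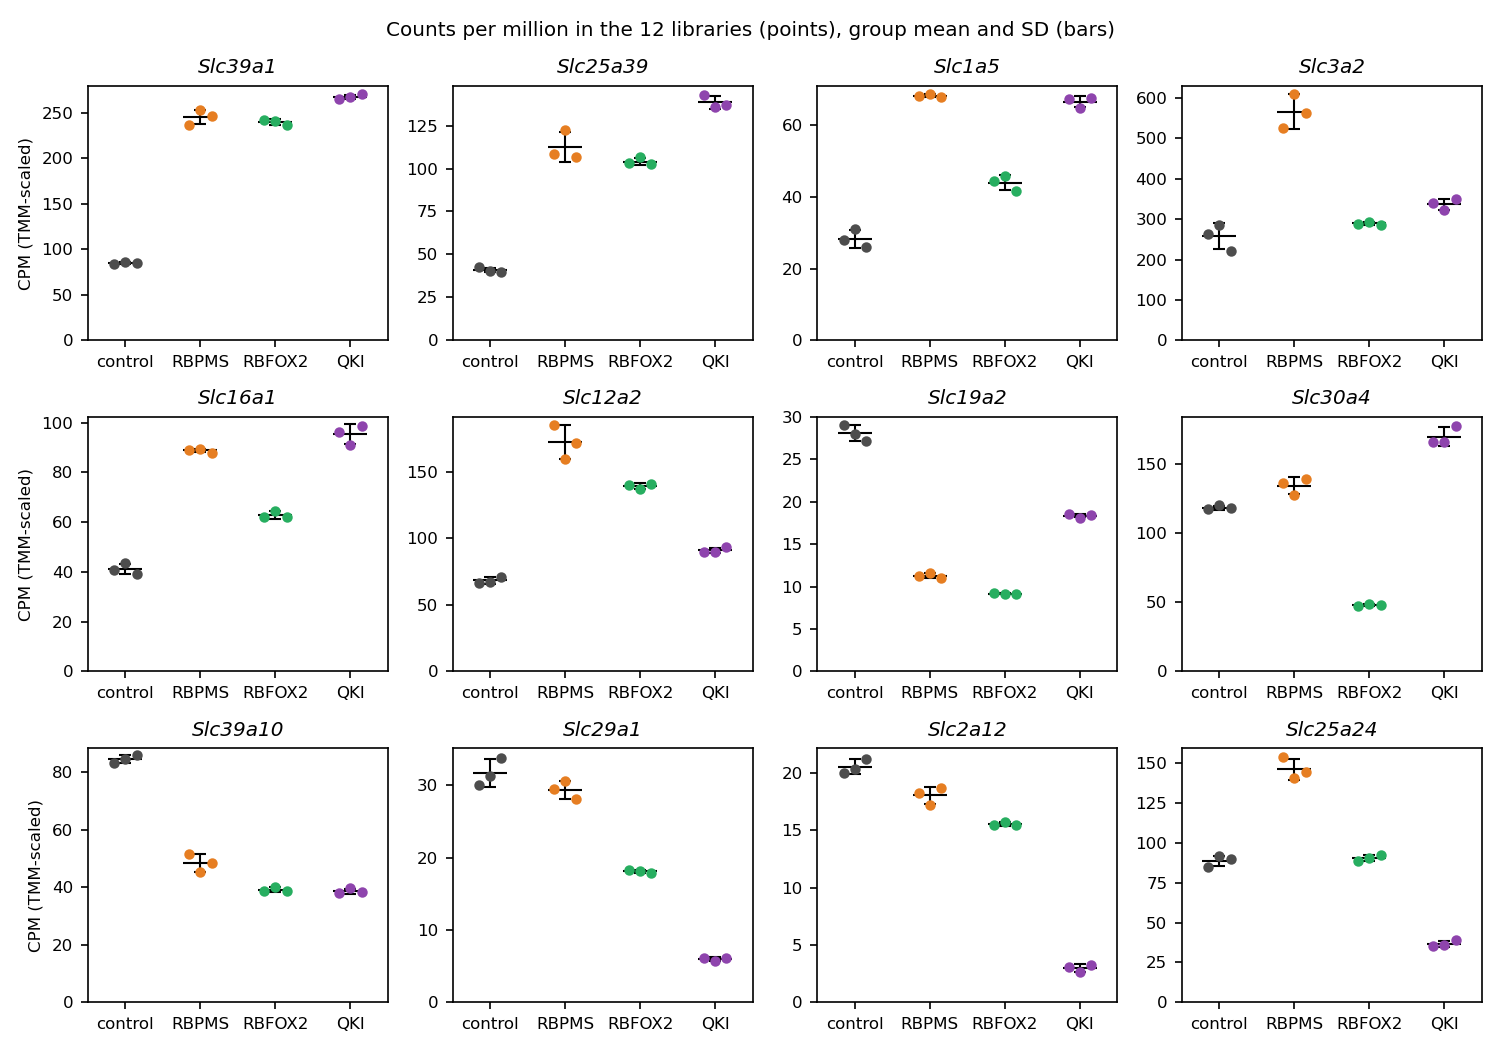
CPM (TMM-scaled, vertical axes from 0) of 12 members in every library, grouped by siRNA, with the group mean and SD as black bars. Slc39a1 and Slc25a39 are above control in all 3 knockdowns, Slc30a4 is low in RBFOX2 knockdown, and Slc29a1, Slc2a12 and Slc25a24 are lowest in QKI knockdown.

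The knockdowns were also compared directly, with no control level in the difference. The control libraries still entered the low-count filter, the TMM scaling, the member minimum and the estimate of the spread. Between RBPMS and RBFOX2 knockdown 3 of 146 members differed past the rule (2.05%), against a background of 2.78% of genes of at least 5 CPM. Between RBPMS and QKI knockdown 18 differed (12.3%, background 6.51%), 17 of them higher in RBPMS knockdown. Between RBFOX2 and QKI knockdown 21 differed (14.4%, background 10.6%), 17 higher in RBFOX2 knockdown. The background leaned the same way. In the same order, 214 genes of at least 5 CPM were higher and 84 lower in the knockdown named first, 597 and 100, and 790 and 348. With library totals in place of TMM scaling the split between RBPMS and RBFOX2 knockdown was 3 higher and 1 lower, beside 3 and none, and that between RBPMS and QKI knockdown was 12 higher and 2 lower, beside 17 and 1. In all 3 comparisons the called members had libraries that did not overlap, and the share over all called genes was not counted here either.

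The 3 members that separated RBPMS from RBFOX2 knockdown were all higher in RBPMS knockdown. They were Slc30a4 (1.48 ± 0.039, SE), the glycine transporter Slc6a9 (GlyT1, 1.34 ± 0.060) and the cationic amino acid transporter Slc7a3 (1.31 ± 0.091). Slc6a9 stood at 51.4, 53.2 and 43.4 CPM in control, 86.2, 83.6 and 87.6 after RBPMS, 34.6, 34.6 and 32.3 after RBFOX2 and 39.3, 38.1 and 41.3 after QKI knockdown. RBPMS libraries were all above control and the others all below it. Slc7a3 was at 11.8, 12.2 and 9.63 CPM in control, 17.9, 19.2 and 16.6 after RBPMS and 7.82, 7.29 and 6.49 after RBFOX2 knockdown, also on opposite sides of control.

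Between RBPMS and QKI knockdown the largest differences were in Slc2a12 (2.58 ± 0.069, SE), Slc29a1 (2.29 ± 0.055) and Slc25a24 (1.99 ± 0.045). Slc39a9 was the member lower in RBPMS knockdown (-1.18 ± 0.038). Between RBFOX2 and QKI knockdown the largest were Slc2a12 (2.37 ± 0.068), Slc16a14 (2.33 ± 0.071) and Slc7a2 (1.94 ± 0.093), all higher in RBFOX2 knockdown. In the other direction stood Slc30a4 (-1.82 ± 0.040), Slc25a2 (-1.25 ± 0.074), the lysosomal glutamine transporter Slc38a7 (-1.10 ± 0.050) and Slc19a2 (-1.01 ± 0.045). Slc38a7 stood at 77.8, 84.97 and 73.3 CPM in control, 57.4, 55.8 and 55.4 after RBFOX2 and 121, 115 and 126 after QKI knockdown.

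Some members separated knockdowns without a call against control in either, with means on opposite sides of it. The zinc carrier Slc39a13 (ZIP13) was at 0.12 and 0.46 in RBPMS and RBFOX2 knockdown and -0.99 in QKI knockdown, and differed from QKI by 1.11 ± 0.036 and 1.45 ± 0.036. The sodium bicarbonate cotransporter Slc4a4 differed by 1.10 ± 0.064 and 1.39 ± 0.064 in the same comparisons, although its RBPMS libraries overlapped control. The ornithine carrier Slc25a15 and the outer-membrane protein Slc25a46 differed between RBFOX2 and QKI knockdown by 1.16 and 1.16, the taurine transporter Slc6a6 between RBPMS and QKI knockdown by 1.31, and mitoferrin Slc25a37 by 1.05.

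**Figure D4:**
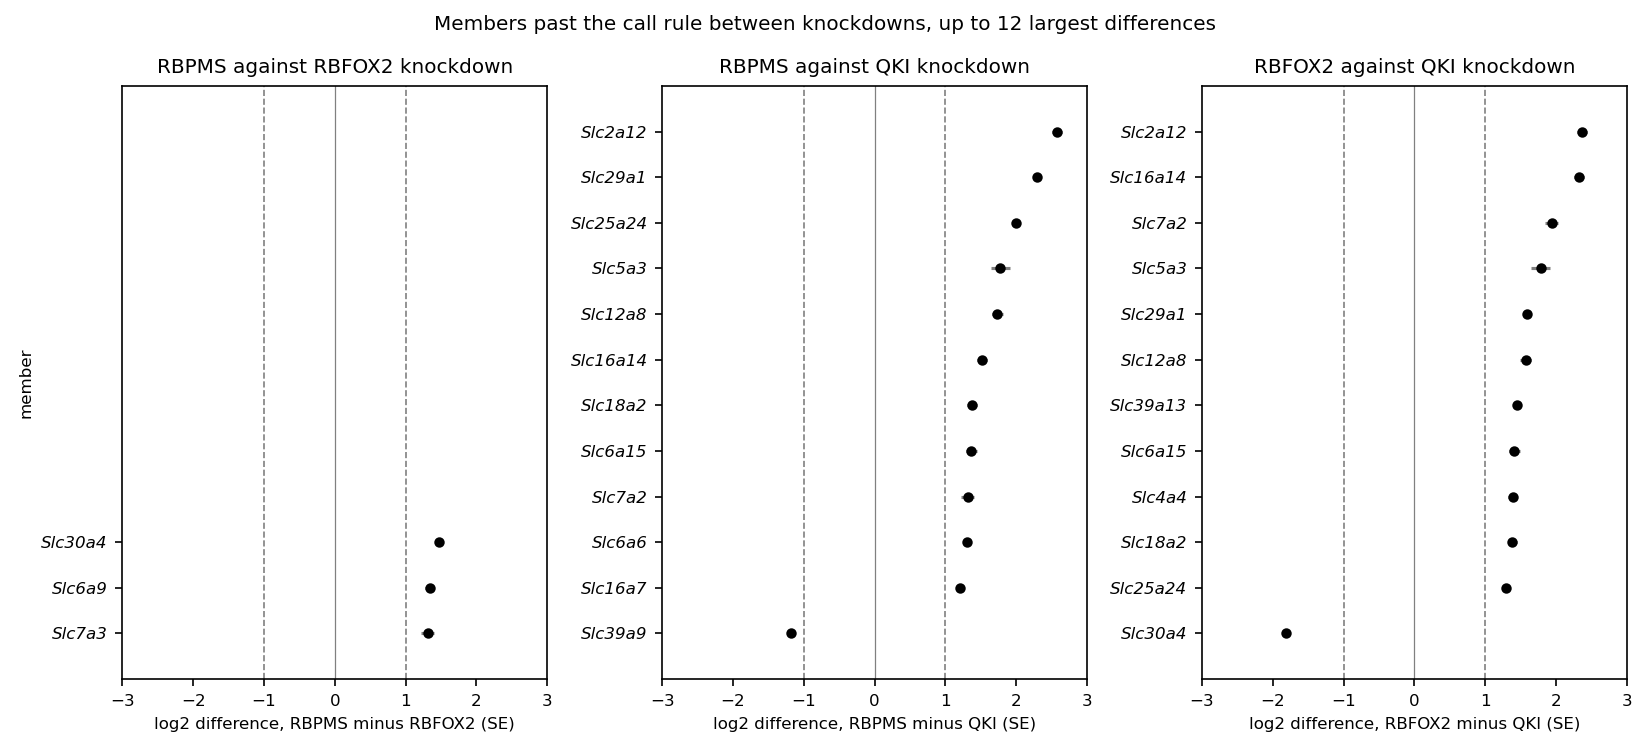
Log2 difference between knockdowns with SE (horizontal axes, first minus second) of members past the call rule, up to 12 with the largest differences in each panel. Dashed lines mark the fold threshold of 1; against QKI knockdown all points but Slc39a9 (middle) and Slc30a4 (right) lie on the right, lower in QKI knockdown.

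Without RBPMS-KD 2 the count in RBPMS knockdown was 10 in place of 9, the original 9 plus Slc22a18. The counts against RBFOX2 and QKI knockdown stayed at 3 and 18, with the same genes. The largest shift among the 9 was in Slc25a39, from 1.46 to 1.39.

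Related transporter lists, drawn up with earlier results of these data known, are given by their counts, to be read beside the 9.66%, 11.7% and 17.5% of all genes tested that changed in RBPMS, RBFOX2 and QKI knockdown. Of 20 tested solute carriers under other names, 1 fell after RBPMS knockdown, none changed after RBFOX2 and 4 (20%) fell after QKI knockdown, 3 of them under 5 CPM. The phosphate exporter Xpr1 was at 116 ± 1.28 CPM in control and 27.4 ± 1.67 after QKI knockdown (SD, n = 3, -2.08 ± 0.062, SE). The others were Sfxn2 and Sfxn5, mitochondrial carriers of the sideroflexin family, at -1.61 and -1.70, and Nipal3 at -1.55, which was also the fall in RBPMS knockdown (-1.51). Of 10 chaperones and regulators, Emb (embigin), a chaperone of monocarboxylate transporters, fell after QKI knockdown from 106 ± 0.884 to 45.1 ± 1.09 CPM (-1.23 ± 0.037), and the kinase Sgk1 rose after RBPMS knockdown (1.01). Sgk1 was also higher after QKI knockdown (0.94), just short of the fold threshold. None of the 10 changed after RBFOX2 knockdown.

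Of 9 tested sodium-potassium pump subunits, 1, 3 and 4 changed in RBPMS, RBFOX2 and QKI knockdown. Among them Atp1b1 was lower after QKI knockdown (126 ± 8.37 against 50.9 ± 2.22 CPM, -1.31 ± 0.045). Of 4 tested organic anion transporters, Slco3a1 fell after QKI knockdown (-1.43) and Slco4a1, at 0.00768 CPM in control, was called higher after RBPMS and QKI knockdown. Of 30 tested ABC transporters, 2 were higher and 3 lower after RBPMS, 1 higher and 1 lower after RBFOX2, and 3 higher and 5 lower after QKI knockdown. Of these calls 2, 2 and 6 were in genes under the minimum of 5 CPM. Among the called ABC transporters only, those with the highest counts were the lipid transporters Abca2 and Abca3. They were lower after RBPMS (-1.49 and -1.15) and QKI knockdown (-1.58 and -1.72) and not called after RBFOX2 knockdown.

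Around the minimum of 5 CPM, the members just inside were Slc12a8 at 5.13 and Slc49a3 at 5.32 CPM, and just outside were Slc2a13 at 4.89 and Slc24a3 at 4.32 CPM. Slc2a13, which carries myo-inositol with protons, stood at 6.41, 5.81 and 6.31 CPM in control and 2.82, 2.29 and 2.48 after QKI knockdown (-1.28 ± 0.11, SE). Below the minimum were 101 tested solute carriers, of which 28 changed after RBPMS, 21 after RBFOX2 and 31 after QKI knockdown, 12, 11 and 14 of them higher. These were 27.7%, 20.8% and 30.7%, beside 16.8%, 19.9% and 26.7% of all tested genes under 5 CPM. Of the symbols left out by name, the glucose transporter Slc2a3 was higher in all 3 knockdowns (1.71, 1.23 and 1.36) and the lactate transporter Slc16a3, itself under 5 CPM, was lower in all 3 (-1.54, -2.22 and -1.94). Slc2a1, Slc7a11 and Slc8a1 were called in none.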

How the data were processed

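RNA from 12 libraries of PAC1 cells was measured by poly(A) RNA-seq (directional, paired-end). The authors deposited raw read counts per gene symbol and a normalised table. STAR alignment to mRatBN7.2 and featureCounts on RefSeq genes made the counts, according to the methods; the strand setting and the treatment of reads that map to several places are not given in the sources used here, so overlapping, antisense and near-identical genes are uncertain. The submitters' processing notes list STAR 2.5.2a (the methods name a later version), edgeR 3.28.1 and DESeq2 1.30.0. The authors' normalised table (noise filter, then quantile normalisation) holds a signal that is not a count, with low values removed, and was used only as an alternative, on log2(value + 1). Of deposited counts from 1 to 19, 68.1% were even, against 50.9% of high counts, and the cause was not tested.

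Counts were fitted here with edgeR 4.0.16 (R 4.3.3; TMM scaling, filterByExpr, quasi-likelihood test) over all 12 libraries, with Benjamini-Hochberg adjustment over 18438 genes. CPM are TMM-scaled; the minimum of 5 CPM used library totals. The code was tested on simulated data. Library totals of 110595399 to 151665474 counts are above the read number to which the methods say each sample was subsampled, so what 1 count stands for is uncertain. Halved counts were run as an alternative. DESeq2 1.42.0 and limma 3.58.1 served alternatives.

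Members and lists were chosen with earlier results of these data known. Genes were named by a fixed rule, apart from the exceptions given with the substrate classes. The rule took a panel of transporters, the 8 largest rises and falls per knockdown and members changed alike in all 3. It also took the 2 highest per class, the 3 largest differences per pair and direction and those at the minimum. The siRNA targets and the genes left out by name completed it. A few results are not reported here. Chromosome positions are printed only for RefSeq promoters (GRCr8), a different build from the authors'.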

Additional observations from a re-analysis of the deposited data

How the results depend on the processing

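The counts of changed members in RBPMS, RBFOX2 and QKI knockdown (9, 8 and 29), and of members that separated RBPMS from RBFOX2, RBPMS from QKI, and RBFOX2 from QKI knockdown (3, 18 and 21), stayed within 1.5 times under RLE size factors, library totals, no filter, a minimum mean of 200 counts, DESeq2, only the 6 libraries of a comparison, halved counts and the authors' normalised table. With the adjusted p alone they were 121, 114, 124, 111, 120 and 119. With a test against a log2 fold change of 1 (glmTreat), the RBPMS count was 5, and the others were 6, 22, 3, 14 and 15. With a member minimum of 2 CPM the RBPMS count was 14 of 163 genes; with 10 CPM the 3 knockdown counts were 9, 7 and 22 of 126, and with 5 CPM in control alone 10, 8 and 30 of 148. Leaving out each library in turn gave 8 to 10, 8 to 9 and 29 to 30, and 3 to 4, 18 to 20 and 20 to 22. Scaling by library totals moved the median log2 difference of all genes between RBPMS and QKI knockdown from 0.010 to -0.12, and the split between RBPMS and RBFOX2 knockdown from 3 higher and none lower to 3 and 1, and that between RBPMS and QKI knockdown from 17 and 1 to 12 and 2. No pairing by replicate number was evident. Deviations from the group means correlated from -0.36 to 0.26 between same-numbered libraries and from -0.34 to 0.42 between different-numbered ones. The replicate block gave the same counts (9, 8, 29, 3, 18 and 21). Equal counts cannot exclude pairing, and the labels do not say what the replicates are. The alternatives gave 3588 values of named members that differed from control by adjusted p. With the adjusted p alone 119 gained the call, which that choice of values fixes in advance, so it does not measure stability. With glmTreat 8 lost the call. Slc4a7 in QKI knockdown gained it in 3 other settings, and Slc19a1 in RBPMS (without 2 libraries) and Slc43a2 in QKI knockdown (without 1) lost it. 1 value turned sign: Slc25a2 in QKI knockdown went from -0.18 to 0.00015 in the normalised table; the cause was not tested.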
